A study of Mus musculus with 4 samples.

Results

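The transcripts described here are those of 36 genes known as direct targets of the tumour suppressor p53, followed through cultures of 2 mouse keratinocyte lines. The genes were taken from the deposited count table by exact gene name, and all 36 were found among its 23420 gene rows. They were sorted by what their products do into 6 genes of cell-cycle arrest and growth control, 13 of apoptosis, 4 of feedback on p53, 4 of DNA repair and synthesis, and 9 of metabolism and stress signalling. All 36 had counts in every library and passed the filter on low counts, so none is missing below.

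The lines are called MK1 and MK2, and total RNA of 2 biological replicate cultures of each was sequenced, in a series concerned with the p63 regulatory landscape of mouse and human epidermis. Both lines are labelled as keratinocytes, the epithelial cells of the epidermis. The labels name no strain, genotype, treatment, passage or time point for either, nor whether a line is 1 clone, and each line stands for itself alone. The 4 libraries held 25237391 to 30261111 counts. Each change is given as MK2 minus MK1, and each p measures only the spread between cultures.

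p53 is a transcription factor that DNA damage, oncogene signalling and other stresses stabilise. Its targets halt the cell cycle, start apoptosis, support repair, adjust metabolism and, through the ubiquitin ligase Mdm2, limit p53 itself. p63, which maintains stratified epithelia such as the epidermis, belongs to the same family and binds a closely related DNA element.

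That element consists of 2 copies of a half-site of 10 bases. Promoter windows of RefSeq (GRCm38.p6, the mm10 sequence) were matched by symbol for 31 of the 36 genes, and Zmat3, Trp53inp1, Pmaip1, Rrm2b and Tnfrsf10b had no entry. The 250 bases before each start were searched for 2 consensus p53 half-sites at most 1 base apart, with the core CNNG kept in each and up to 3 departures from the consensus in all, at most 2 in a half-site. The half-site is its own reverse complement, so that 1 search covers both strands. A window with such an element was found for 6 of the 31 genes (19.4%) and for 610 of 27025 genes with any window (2.26%), each gene counted once over all its starts. An exact single half-site was found for 9 of the 31 (29.0%) and for 2216 of the 27025 (8.20%). The 6 windows are shown because they hold the matches to the p53 element that the search found next to a start. The element is in capitals with up to 50 bases on each side, and no base shown lies in an annotated exon.
Cdkn1a (mm10, chr17:29090878-29090978, plus strand): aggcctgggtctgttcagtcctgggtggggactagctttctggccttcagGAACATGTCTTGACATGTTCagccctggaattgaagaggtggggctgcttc
Ccng1 (mm10, chr11:40755412-40755531, minus strand): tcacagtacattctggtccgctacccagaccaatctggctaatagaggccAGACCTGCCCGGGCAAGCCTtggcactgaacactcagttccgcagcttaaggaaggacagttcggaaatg
Bax (mm10, chr7:45467029-45467148, minus strand): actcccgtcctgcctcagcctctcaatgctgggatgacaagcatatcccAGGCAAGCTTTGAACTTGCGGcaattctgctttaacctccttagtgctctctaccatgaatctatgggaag
Bbc3 (mm10, chr7:16309436-16309555, plus strand): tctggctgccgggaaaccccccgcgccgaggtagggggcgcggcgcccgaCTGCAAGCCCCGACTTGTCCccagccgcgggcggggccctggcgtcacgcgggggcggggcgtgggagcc
Zfp365 (mm10, chr10:67912663-67912775, minus strand): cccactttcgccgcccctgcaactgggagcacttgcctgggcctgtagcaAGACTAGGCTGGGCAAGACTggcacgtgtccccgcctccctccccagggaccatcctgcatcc
Dcxr (mm10, chr11:120727336-120727456, minus strand): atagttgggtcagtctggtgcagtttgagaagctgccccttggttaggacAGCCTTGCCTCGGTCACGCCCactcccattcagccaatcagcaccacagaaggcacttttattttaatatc

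The Cdkn1a and Ccng1 elements each depart from the consensus at 1 base, those of Bax and Zfp365 at 2, and those of Bbc3 and Dcxr at 3. A match is a description of letters and not a measured binding site, and a gene without one may hold an element elsewhere. The search rule was set with the windows in view. The 6 genes with an element span log2 changes from -1.93 (Bbc3) to -0.29 (Zfp365).

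Each of the 5 functional groups held p53 target genes that were lower in MK2. Of the 36, 31 fell and none rose in the quasi-likelihood test of edgeR, with p-values adjusted after Benjamini and Hochberg over all 12479 genes tested (adjusted p under 0.05). Of all genes tested 54.6% were called, 28.6% lower and 25.9% higher. The share called lower was 83.3% in the arrest group, 84.6% in apoptosis and 100% in both feedback and metabolism. It was 50% in DNA repair and synthesis, where 2 of 4 genes were called. All 36 estimates were below 0, 0 were higher at an unadjusted p under 0.05, and DESeq2 also called 31 lower and 0 higher. The median log2 change of the 36 was -0.73, against -0.0098 for all genes tested. In CPM, read counts scaled to 1000000 counts of a library, both MK2 cultures lay below both MK1 cultures for 34 of the 36 genes, and above both for 0. Of all genes tested, 40.9% lay below and 39.5% above in that sense. The number called lower was 20 without MK1 replicate 1 and 24 without MK1 replicate 2, with median log2 changes of -0.69 and -0.77.

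Levels per length, as TPM (counts per base of exon, scaled to the same total in each library), allow the genes to be summed and ordered. The 36 genes together made up 4488 and 4401 TPM in the MK1 libraries and 2210.3 and 2282 TPM in the MK2 libraries. The cyclin gene Ccng1 was the most abundant of them in both lines, at a mean of 605 TPM in MK1 and 228 TPM in MK2. In MK1 it was followed by Ephx1 (466 TPM) and Cdkn1a (464 TPM), which lay within the spread of each other's libraries. In MK2 the next were the apoptosis genes Phlda3 (221 TPM) and Pmaip1 (201 TPM), which had fallen less. At the low end stood Cyfip2 in both lines (1.22 and 0.858 TPM). Across the 36 genes, Spearman's rho between the TPM of the lines was 0.95, and between the MK1 TPM and the log2 change it was -0.11. Both are descriptions across genes that share their libraries.

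**Figure D1:**
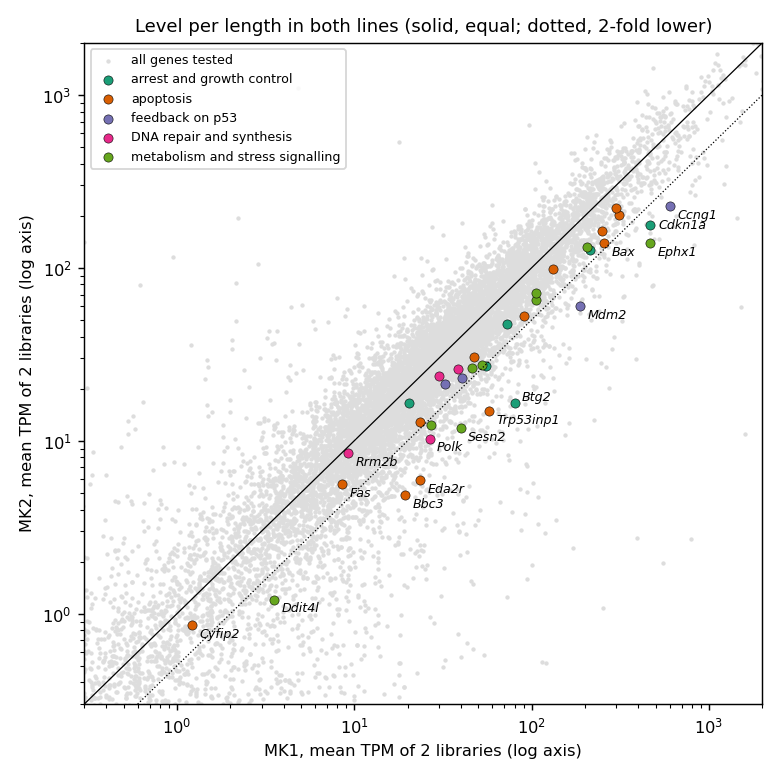
Mean TPM of each p53 target gene in MK1 (horizontal) and MK2 (vertical), both on log axes, coloured by function, over all genes tested in grey (those under the axis limits are not drawn). All 36 points lie below the solid line of equal levels, from Cyfip2 at 1.22 and 0.858 TPM to Ccng1 at 605 and 228 TPM, and the dotted line marks a level 2-fold lower in MK2.

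The arrest and growth control group held the largest decrease of all 36, that of Btg2. Of its 6 genes, 5 fell and 1 did not pass. Their summed level was 938 and 871 TPM in the MK1 libraries and 367 and 453 TPM in the MK2 libraries.

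Btg2 (chromosome 1, 134074865 to 134079155, mm10 as for every position), an antiproliferative adaptor of the mRNA deadenylation machinery, stood at 123 and 114 CPM in the MK1 libraries and 25.4 and 25.6 CPM in the MK2 libraries. The MK2 cultures lay far below both MK1 cultures and close to each other. The log2 change was -2.21 ± 0.109, adjusted p = 2.70e-05 (± standard error, as below), a level 4.64-fold higher in MK1. Cdkn1a (chromosome 17, 29090986 to 29100722), which encodes the CDK inhibitor p21 and is the best known arrest target of p53, stood at 456 and 441 CPM in the MK1 libraries and 152 and 204 CPM in the MK2 libraries. The groups did not overlap, although the MK2 cultures differed from each other more than the MK1 cultures did. Its log2 change was -1.33 ± 0.153, adjusted p = 6.50e-04, but it did not pass the test for a change beyond 2-fold (glmTreat, adjusted p = 0.0634).

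Gtse1, which encodes a microtubule-binding protein of the S and G2 phases that moves p53 out of the nucleus, fell from 73.8 ± 3.73 to 37.6 ± 3.50 CPM (mean ± SD, n = 2 cultures of each line, as below; log2 change -0.97 ± 0.117, adjusted p = 7.73e-04). The polo-like kinase gene Plk2 fell from 284 ± 27.3 to 178 ± 24.4 CPM (log2 change -0.67 ± 0.135, adjusted p = 0.00592). Tob1, a relative of Btg2, fell from 79.5 ± 0.648 to 54.3 ± 13.98 CPM (log2 change -0.55 ± 0.174, adjusted p = 0.0340). These were smaller changes than that of Btg2, and the calls of Plk2 and Tob1 were lost with single libraries left out. The Plk2 call ended without MK1 replicate 1 (log2 change -0.57, edgeR, adjusted p = 0.0644). The Tob1 call ended without MK1 replicate 1 or MK1 replicate 2, where the estimate barely moved (log2 changes -0.56 and -0.54, edgeR, adjusted p = 0.138 and 0.135), and without MK2 replicate 1, where it was smaller (log2 change -0.30, adjusted p = 0.0739). Without MK1 replicate 1 the group thus had 3 called genes.

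The gene of this group that did not pass was Ptpn14, a phosphatase that restrains the growth regulator YAP. It stood at 105 and 104 CPM in the MK1 libraries and 98.2 and 80.2 CPM in the MK2 libraries. The groups did not overlap, yet the gap was small beside the difference between the MK2 cultures (log2 change -0.23 ± 0.126, adjusted p = 0.168). With MK2 replicate 1 left out it passed the test (log2 change -0.37, edgeR, adjusted p = 0.0328).

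**Figure D2:**
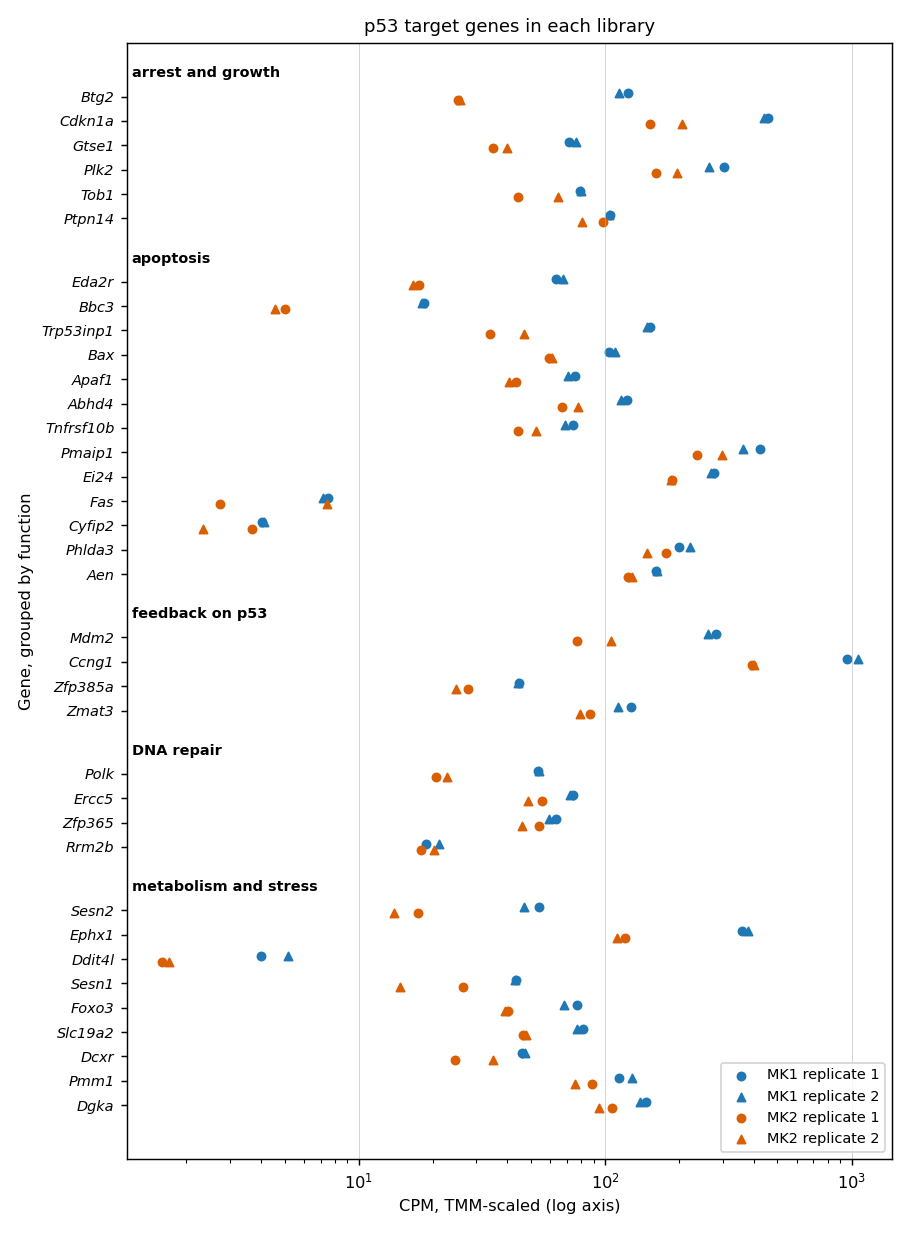
CPM of the 36 p53 target genes in each library, on a log axis, sorted by functional group and by size of change, with circles for replicate 1 and triangles for replicate 2. The orange MK2 points lie left of the blue MK1 points for all genes but Fas and Rrm2b, where the ranges overlap.

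The apoptosis group was the most numerous. Of its 13 genes, 11 fell and 2 did not pass, with log2 changes from -1.93 to -0.35 and a median of -0.56. The sum over the group was 1545 and 1492 TPM in the MK1 libraries and 940.4 and 957 TPM in the MK2 libraries. Without MK1 replicate 1 the group had 7 called genes.

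Eda2r (chromosome X, 97333841 to 97377209), the receptor of the TNF family ligand ectodysplasin A2, stood at 63.2 and 67.7 CPM in the MK1 libraries and 17.6 and 16.6 CPM in the MK2 libraries. Bbc3 (chromosome 7, 16309583 to 16318334), which encodes PUMA, a BH3-only protein that frees BAX and BAK to open mitochondria, stood at 18.3 and 18.1 CPM in the MK1 libraries and 5.01 and 4.59 CPM in the MK2 libraries. Trp53inp1 (chromosome 4, 11156441 to 11174377), which encodes a nuclear protein that promotes the modification of p53 linked to cell death, stood at 152 and 148 CPM in the MK1 libraries and 34.0 and 46.8 CPM in the MK2 libraries. In all 3 genes the higher MK2 culture lay more than 3-fold below the lower MK1 culture. Their log2 changes were -1.93 ± 0.111, adjusted p = 4.63e-05 for Eda2r, -1.93 ± 0.156, adjusted p = 1.69e-04 for Bbc3 and -1.89 ± 0.163, adjusted p = 2.16e-04 for Trp53inp1. The surroundings of Trp53inp1 on chromosome 4 moved the other way, with a median log2 change of 0.52 over its 50 nearest tested genes.

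Bax, Apaf1 and Pmaip1 fell less than Bbc3. Bax, the pore-forming effector, fell from 107 ± 4.49 to 60.2 ± 1.12 CPM (log2 change -0.83 ± 0.102, adjusted p = 8.48e-04). Apaf1, the scaffold of the apoptosome, fell from 73.1 ± 3.82 to 42.0 ± 2.02 CPM (log2 change -0.80 ± 0.108, adjusted p = 0.00121). Pmaip1, which encodes the BH3-only protein NOXA, fell from 394 ± 41.8 to 267 ± 43.3 CPM (log2 change -0.56 ± 0.145, adjusted p = 0.0166). The transcripts of NOXA and PUMA stood at very different levels, with Pmaip1 at 310.5 TPM and Bbc3 at 19.3 TPM in MK1. The Pmaip1 call ended without MK1 replicate 1 (log2 change -0.45, edgeR, adjusted p = 0.134).

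Among the death receptors, Tnfrsf10b, the mouse receptor of the ligand TRAIL, fell from 71.5 ± 3.52 to 48.3 ± 5.95 CPM (log2 change -0.56 ± 0.124, adjusted p = 0.00853), a call that ended without MK1 replicate 1 (log2 change -0.52, edgeR, adjusted p = 0.0740). Fas, the receptor of FAS ligand, stood at 7.53 and 7.19 CPM in the MK1 libraries and 2.74 and 7.41 CPM in the MK2 libraries. One MK2 culture lay well below both MK1 cultures and the other between them, so that the groups overlapped. Fas was not called (log2 change -0.53 ± 0.407, adjusted p = 0.306). With MK2 replicate 2 left out it passed the test as lower (log2 change -1.42, edgeR, adjusted p = 0.00187), and without MK2 replicate 1 the log2 change was 0.014 (edgeR, adjusted p = 0.960).

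The other members of the group fell by 0.35 to 0.72 on the log2 scale or did not pass. Abhd4, a lipase linked to death of detached cells, had a log2 change of -0.72 ± 0.118, adjusted p = 0.00261, and Ei24, a membrane protein of the endoplasmic reticulum, one of -0.55 ± 0.0981, adjusted p = 0.00369. Phlda3, a repressor of the survival kinase AKT, and Aen, an apoptosis-enhancing nuclease, had the smallest called changes (log2 changes -0.38 ± 0.125, adjusted p = 0.0390, and -0.35 ± 0.0981, adjusted p = 0.0206). Both calls were lost with single libraries left out. The Phlda3 call ended without MK1 replicate 1, MK1 replicate 2 or MK2 replicate 2 (log2 changes -0.45, -0.31 and -0.26, edgeR, adjusted p = 0.102, 0.212 and 0.110) and with the replicate number as a block (log2 change -0.38, adjusted p = 0.0735). The Aen call ended without MK1 replicate 1 or MK1 replicate 2, with an estimate close to that from all libraries (log2 changes -0.37 and -0.35, edgeR, adjusted p = 0.108 and 0.116). Cyfip2, a subunit of the actin-regulating WAVE complex, was the rarest gene of the list per length, at 4.05 and 4.13 CPM in the MK1 libraries and 3.70 and 2.33 CPM in the MK2 libraries. Its MK2 cultures differed from each other by more than the nearer of them did from MK1, and it was not called (log2 change -0.45 ± 0.268, adjusted p = 0.198), except without MK2 replicate 1 (edgeR, adjusted p = 0.0410).

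All 4 genes of feedback on p53 fell. Their summed level was 853 and 877 TPM in the MK1 libraries and 326 and 338 TPM in the MK2 libraries, and the median log2 change was -1.05. Most of these sums came from Ccng1, at 581 and 628 TPM in the MK1 libraries and 228 and 227 TPM in the MK2 libraries. Mdm2 (chromosome 10, 117688905 to 117710716), the ubiquitin ligase that marks p53 for destruction and is itself switched on by p53, stood at 281 and 262 CPM in the MK1 libraries and 76.7 and 105 CPM in the MK2 libraries. Ccng1 (chromosome 11, 40748552 to 40755286), which encodes cyclin G1, a protein that directs a phosphatase to Mdm2, stood at 958 and 1058 CPM in the MK1 libraries and 394 and 400.3 CPM in the MK2 libraries. In both genes the groups were far apart, the MK2 cultures being close together for Ccng1 and spread for Mdm2. The log2 changes were -1.58 ± 0.163, adjusted p = 4.31e-04 for Mdm2 and -1.34 ± 0.107, adjusted p = 1.62e-04 for Ccng1.

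The other members of the feedback group encode RNA-binding zinc finger proteins reported to act on p53 or its mRNA. Zfp385a fell from 44.5 ± 0.174 to 26.3 ± 2.08 CPM (log2 change -0.76 ± 0.114, adjusted p = 0.00180). Zmat3 fell from 120.0 ± 10.4 to 82.7 ± 5.27 CPM (log2 change -0.54 ± 0.115, adjusted p = 0.00764), and its call ended without MK1 replicate 1 (log2 change -0.45, edgeR, adjusted p = 0.0750). Exons of 4930429B21Rik cover 2.08% of the exonic bases of Zmat3.

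DNA repair and synthesis was the group with the smallest changes apart from Polk. Of its 4 genes, 2 fell and 2 did not pass, with a median log2 change of -0.39. Polk (chromosome 13, 96480689 to 96542485), a polymerase that copies across damaged bases, stood at 53.4 and 53.9 CPM in the MK1 libraries and 20.6 and 22.8 CPM in the MK2 libraries. The groups lay far apart (log2 change -1.30 ± 0.112, adjusted p = 2.07e-04). The median log2 change of its 50 nearest tested genes on chromosome 13 was -0.35. Ercc5, the XPG nuclease of nucleotide excision repair, fell from 73.2 ± 1.22 to 52.1 ± 5.02 CPM (log2 change -0.49 ± 0.113, adjusted p = 0.0104). Its call ended without MK1 replicate 1 (log2 change -0.48, edgeR, adjusted p = 0.0761) or MK1 replicate 2 (log2 change -0.51, adjusted p = 0.0571), and in either case the group had 1 called gene.

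Rrm2b, the p53-inducible subunit of ribonucleotide reductase that supplies nucleotides for repair, stood at 18.7 and 21.3 CPM in the MK1 libraries and 17.9 and 20.2 CPM in the MK2 libraries. The groups overlapped, and this was the smallest change among the 36 (log2 change -0.07 ± 0.144, adjusted p = 0.713). Zfp365, a zinc finger protein linked to genome stability, stood at 63.1 and 59.0 CPM in the MK1 libraries and 54.1 and 46.1 CPM in the MK2 libraries. Its groups did not overlap, but it was not called (log2 change -0.29 ± 0.121, adjusted p = 0.0842), except without MK2 replicate 1 (edgeR, adjusted p = 0.0313).

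All 9 genes of metabolism and stress signalling fell, with a median log2 change of -0.87. Their sum was 1046 and 1058 TPM in the MK1 libraries and 505 and 469 TPM in the MK2 libraries. Sesn2 (chromosome 4, 132492807 to 132510456), a sestrin that holds the growth kinase complex mTORC1 in check when amino acids are scarce, stood at 53.9 and 47.0 CPM in the MK1 libraries and 17.4 and 13.9 CPM in the MK2 libraries. Ephx1 (chromosome 1, 180989556 to 181017495), the microsomal epoxide hydrolase, stood at 360.1 and 381 CPM in the MK1 libraries and 119.9 and 112 CPM in the MK2 libraries. In both genes both MK2 cultures lay more than 2-fold below the lower MK1 culture. Their log2 changes were -1.69 ± 0.153, adjusted p = 2.53e-04 for Sesn2 and -1.68 ± 0.106, adjusted p = 6.71e-05 for Ephx1.

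Further regulators of growth signalling fell as well. Sesn1, the second sestrin, stood at 43.6 and 42.9 CPM in the MK1 libraries and 26.4 and 14.7 CPM in the MK2 libraries, and the MK2 cultures were unequal but both below MK1 (log2 change -1.07 ± 0.249, adjusted p = 0.0105). Its call ended without MK1 replicate 1 or MK1 replicate 2 (log2 changes -1.07 and -1.09, edgeR, adjusted p = 0.0722 and 0.0604). Ddit4l, another inhibitor of mTORC1 signalling, was rare and fell from 4.595 ± 0.823 to 1.64 ± 0.0733 CPM (log2 change -1.48 ± 0.242, adjusted p = 0.00259). Foxo3, a transcription factor of stress resistance, fell from 72.5 ± 5.996 to 39.8 ± 0.571 CPM (log2 change -0.87 ± 0.111, adjusted p = 9.90e-04). Sesn1 and Foxo3 lie close together on chromosome 10, where the median of the 50 nearest tested genes was -0.19 for each.

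Apart from Ephx1, the enzymes and the transporter of the group had log2 changes of -0.51 to -0.74. The thiamine transporter gene Slc19a2 had a log2 change of -0.74 ± 0.103, adjusted p = 0.00132, and Dcxr, a reductase of the pentose and glucuronate pathway, one of -0.64 ± 0.171, adjusted p = 0.0176. For Pmm1, a phosphomannomutase, it was -0.57 ± 0.127, adjusted p = 0.00929, and for the lipid kinase gene Dgka it was -0.51 ± 0.110, adjusted p = 0.00813. The calls of these 4 other than that of Slc19a2 were lost with single MK1 libraries left out. The Dcxr call ended without MK1 replicate 1 or MK1 replicate 2 (log2 changes -0.67 and -0.63, edgeR, adjusted p = 0.0939 and 0.0994). That of Dgka ended without MK1 replicate 1 (log2 change -0.47, edgeR, adjusted p = 0.0745) and that of Pmm1 without MK1 replicate 2 (log2 change -0.48, adjusted p = 0.0776). Exons of Pmel cover 3.66% of the exonic bases of Dgka.

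Changes beyond 2-fold were called by glmTreat (log2 change of 1, Benjamini-Hochberg adjustment, adjusted p under 0.05) for 9 of the 36 genes, all lower. Over all genes tested 10.1% were called lower and 3.25% higher in this way. The 9 were Btg2, Eda2r, Bbc3, Trp53inp1, Sesn2, Ephx1, Mdm2, Ccng1 and Polk, so that each functional group held at least 1. Without MK1 replicate 1 the number was 5. Of the 31 called genes, 19 kept their call in each of 11 alternative settings, among them these 9 as well as Cdkn1a, Bax, Apaf1 and Foxo3.

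**Figure D3:**
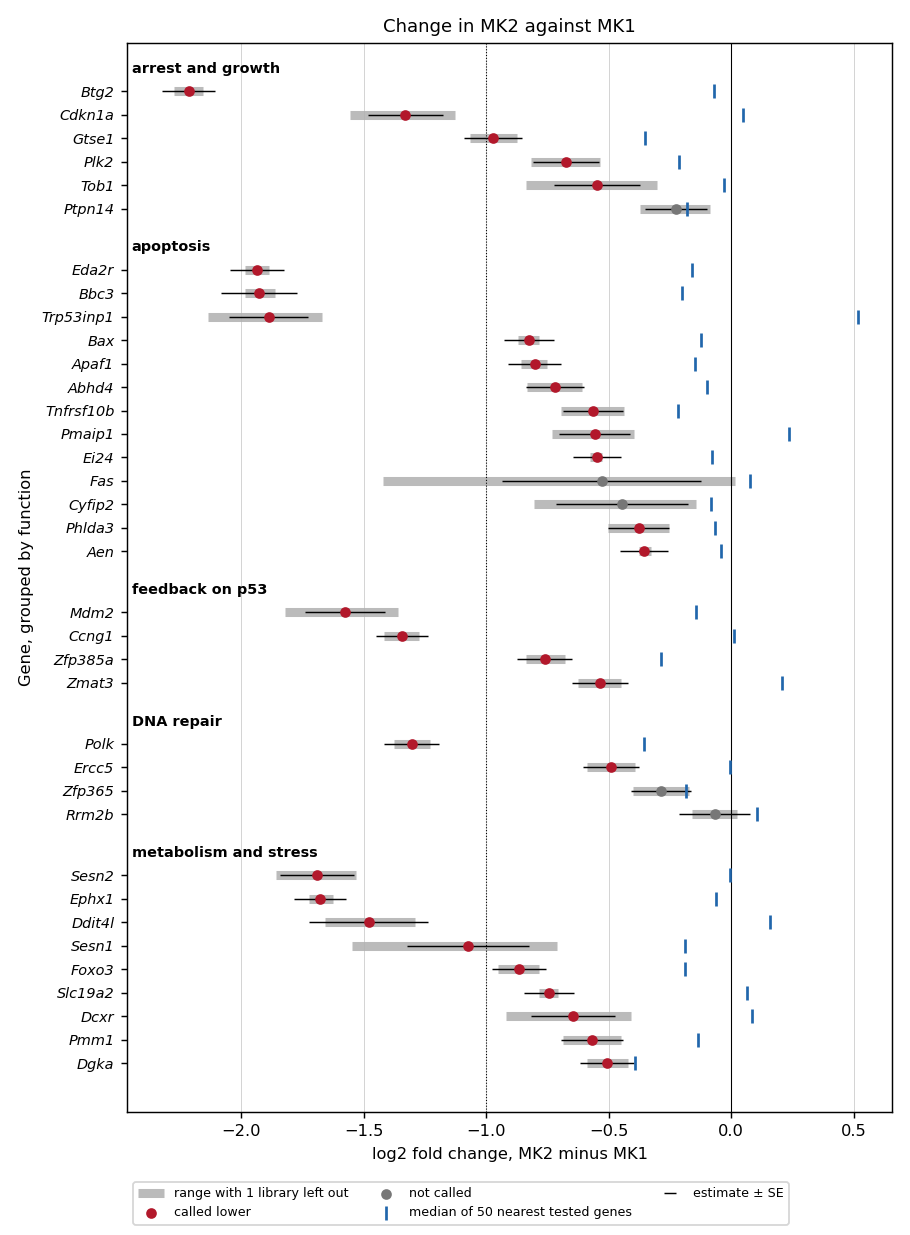
Log2 change of each p53 target gene (MK2 minus MK1, horizontal axis) with its standard error, red where called lower and grey where not called. Grey bars span the estimates with 1 library left out, blue ticks give the median change of the 50 nearest tested genes, and the dotted line marks 2-fold; each gene lies left of its tick, from Trp53inp1, the farthest, to Ptpn14, the nearest.

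The 36 genes are spread over 14 chromosomes, with 6 each on chromosomes 1 and 10. Medians of the chromosomes that hold them ran from -0.41 (chromosome 13) to 0.37 (chromosome 4), so each gene was set beside the median change of its 50 nearest tested genes. The median of these neighbourhood values was -0.08, and all 36 genes were below their own. The difference between gene and neighbourhood had a median of -0.67, ranging from -2.40 for Trp53inp1 to -0.05 for Ptpn14. The neighbourhoods themselves were lower by as much as 0.39 on the log2 scale, around Dgka on chromosome 10, where the chromosome's median was -0.33. Dgka was thus lower than its neighbours by 0.11 on that scale.

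The genes that act on p53 did not share this direction. In a list of 15 such genes, 3 fell (20%, against 28.6% of all genes tested), 4 rose (26.7%, against 25.9%) and 8 did not pass. Their median log2 change was 0.26. The p53 gene itself, Trp53, stood at 139 and 147 CPM in the MK1 libraries and 158 and 214 CPM in the MK2 libraries. Both MK2 cultures were above MK1, but Trp53 was not called (log2 change 0.38 ± 0.155, adjusted p = 0.0741). Mdm4, the partner of Mdm2 in restraining p53, was not called either (log2 change -0.28 ± 0.134, adjusted p = 0.121).

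Trp63, which encodes p63, had a log2 change of 0.26 ± 0.0987, adjusted p = 0.0587, not called. Its relative Trp73 rose from 2.13 ± 0.459 to 24.3 ± 16.3 CPM (log2 change 3.51 ± 0.505, adjusted p = 0.00155). Cdkn2a, whose products include p19ARF, which shields p53 from Mdm2, fell from 46.7 ± 1.68 to 5.69 ± 1.08 CPM (log2 change -3.03 ± 0.165, adjusted p = 3.84e-05). Reads were counted per gene, so the transcripts of Cdkn2a were not told apart. Usp7, a deubiquitinase that acts on both Mdm2 and p53, had a log2 change of 0.78 ± 0.113, adjusted p = 0.00158. Without MK1 replicate 1 the list had 1 gene called lower and 2 called higher.

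A second list of 24 other p53 targets moved in both directions. Gdf15 and Sco2 were too rare to test. Of the 22 others, 9 fell (40.9%, against 28.6% of all genes tested), 3 rose (13.6%, against 25.9%) and 10 did not pass. Their median log2 change was -0.23. The largest called changes at 10 CPM or more were in Ddit4, Psrc1 and Siva1. Ddit4, the closest relative of Ddit4l and an inhibitor of mTORC1 induced by many stresses, stood at 237 and 204 CPM in the MK1 libraries and 17.96 and 16.01 CPM in the MK2 libraries (log2 change -3.70 ± 0.136, adjusted p = 8.63e-06). Psrc1, a spindle protein, and Siva1, a pro-apoptotic adaptor, had log2 changes of -1.20 ± 0.178, adjusted p = 0.00175, and -0.95 ± 0.138, adjusted p = 0.00161. Several well known targets were not called, among them Sfn, the 14-3-3 protein of epithelia (log2 change 0.18 ± 0.110, adjusted p = 0.202), and Xpc, a sensor of damaged DNA (log2 change 0.03 ± 0.118, adjusted p = 0.865). Fdxr and Tigar were among the 3 that rose (log2 changes 0.69 ± 0.170, adjusted p = 0.0133, and 0.62 ± 0.104, adjusted p = 0.00296), with 1 gene called higher without MK1 replicate 1 or without MK1 replicate 2. Sfn, Xpc, Fdxr and Tigar were chosen after their values were seen.

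**Figure D4:**
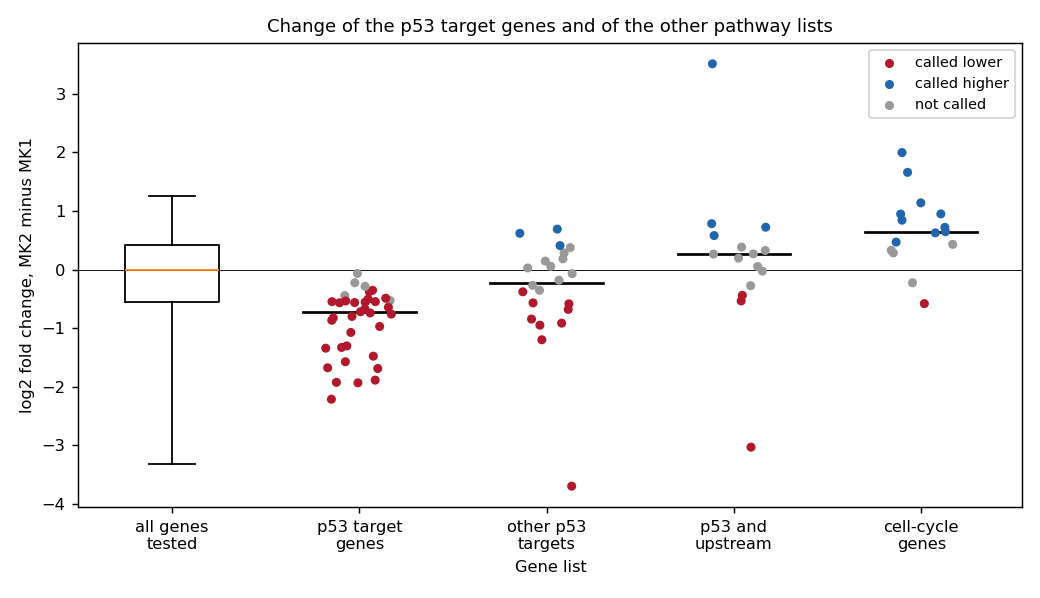
Log2 change (MK2 minus MK1, vertical axis) of the p53 target genes and of 3 related lists, 1 point per tested gene and a black line at each list's median. The box at left spans the 25th to 75th percentile of all genes tested, with its line at the median and whiskers at the 5th and 95th; the p53 target genes lie wholly below 0 with a median of -0.73, and the cell-cycle genes have a median of 0.65.

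Cell-cycle genes that p21 is known to repress through the DREAM complex moved the other way. Of 15 in the list, 10 rose (66.7%, against 25.9% of all genes tested), 1 fell (6.67%, against 28.6%) and 4 did not pass. Their median log2 change was 0.65. Replicate cultures also differed in these genes, with a median log2 difference (replicate 2 minus replicate 1) of 0.32 in MK1 and -0.20 in MK2. The transcription factor gene Mybl2 rose from 42.4 ± 6.60 to 169 ± 8.01 CPM (log2 change 2.00 ± 0.137, adjusted p = 9.33e-05). The mitotic kinase genes Aurka and Bub1 had log2 changes of 1.66 ± 0.167, adjusted p = 3.81e-04, and 1.14 ± 0.160, adjusted p = 0.00143. The gene that fell was E2f1 (log2 change -0.58 ± 0.101, adjusted p = 0.00322), named because it was the only one. Without MK1 replicate 1 the list had 6 genes called higher. The part of proliferation in the lower p53 targets was not tested.

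Transcripts of other cell types were compared between the lines because RNA of such cells could add to either. Of 10 keratinocyte markers, all 10 had at least 1 CPM in every library, summing to 27007 to 27309 CPM in MK1 and 21489.9 to 24937 CPM in MK2. Of these 10, 5 fell (50%, against 28.6% of all genes tested), 1 rose (10%, against 25.9%) and 4 did not pass. Their median log2 change was -0.44. The keratin genes Krt5 and Krt14, which gave most of the sum and are named for that, were not called (log2 changes -0.02 and -0.06, adjusted p = 0.925 and 0.681). The genes of cell adhesion Col17a1 and Dsp fell (log2 changes -1.06 ± 0.120, adjusted p = 5.98e-04, and -0.81 ± 0.141, adjusted p = 0.00330), and the integrin gene Itga6 was the one that rose (log2 change 0.83 ± 0.0982, adjusted p = 7.39e-04). Of 10 markers of B cells and other leukocytes, 7 had at least 1 CPM in both MK1 libraries and 0 had in MK2. Their sum was 32.4 to 32.6 CPM in MK1 and 0.176 to 0.318 CPM in MK2, where Cd79b, Ms4a1, Cd3e and Lyz2 were among those at 0. Cd3e and Lyz2 were near 0 in MK1 as well (means of 0.019 and 0.11 CPM). Itgam overlapped between the lines (means of 0.10 CPM in MK1 and 0.093 CPM in MK2). The 7 leukocyte markers tested and 5 of the keratinocyte markers thus moved in the same direction as the p53 targets. Perp, 1 of these 5, is also in the list of other p53 targets. The fibroblast marker Pdgfra was called lower too (log2 change -2.11 ± 0.457, adjusted p = 0.00800). The endothelial marker Kdr was called higher, as Itga6 was (log2 change of Kdr 0.70 ± 0.150, adjusted p = 0.00774). The part of these markers in the result was not tested. Fibroblast markers summed to 3.35 to 3.95 CPM in MK1 and 1.03 to 1.41 CPM in MK2, with Dcn and Lum at 0 in both. Melanocyte markers summed to 2.68 to 2.70 and 2.98 to 3.28 CPM, with Dct at 0 in both. Endothelial markers summed to 14.9 to 17.8 and 25.4 to 27.4 CPM, nearly all of it Kdr, with Cdh5 at 0 in both. In bulk RNA, fewer cells with a transcript and less of it per cell cannot be told apart.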

How the data were processed

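RNA of 2 keratinocyte lines, with 2 cultures each, was sequenced with an Illumina TruSeq kit, per the labels' protocols. The authors deposited raw read counts per gene, without normalisation. Exonic reads were counted per gene by featureCounts 1.4.6-p4 (UCSC mm10 gene models), per the file headers, with no option for strand, pairs or multiple alignments, so counts of overlapping or copied genes are uncertain. DESeq2 1.10.1, Bowtie2 2.2.6, TopHat2 2.0.13 and featureCounts 1.5.0 are named in the submitters' processing notes. In the header the alignments of MK2 are named MKU, and columns were matched by name to the sample titles (0 columns were left over).

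MK2 was compared with MK1 by edgeR 4.0.16 in R 4.3.3 (filterByExpr with a minimum count of 10, TMM, quasi-likelihood F test, two-sided, and glmTreat for changes beyond 2-fold). Standard errors are the log2 change divided by the square root of F. CPM used TMM-scaled library sizes, and TPM the deposited gene lengths. Precision is limited by 2 cultures per line. Alternatives were DESeq2 1.42.0, other scalings and filters, each library left out, and the replicate number as a block.

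The members and lists were chosen with earlier results of these data known, so their shared direction is no independent evidence. All 36 genes may be named; of the other lists, Trp53, Trp63, Cdkn2a, Mdm4 and up to 3 called genes each with the largest change at 10 CPM or more. Pidd1 and Tigar were matched through synonyms. Replicates differed by more than counting noise (the median chi-square among genes of 20 or more counts was 2.87 for MK1 and 4.28 for MK2), so each library was counted separately.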

Additional observations from a re-analysis of the deposited data

How the results depend on the processing

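The 36 p53 target genes kept their calls with DESeq2 size factors, with library size alone, with no low-count filter, with at least 50 counts in 2 libraries and in the DESeq2 test. With 1 library left out, the number called lower ran from 20 to 33 (5 to 10 beyond 2-fold) and the median log2 change from -0.83 to -0.69. In the same refits the arrest group had 3 to 5 genes called lower, apoptosis 7 to 12, and repair 1 to 3. The list of p53 and its regulators had 1 to 4 lower and 2 to 6 higher, the other p53 targets 1 to 4 higher, and the cell-cycle genes 6 to 12 higher. Over all genes, 2189 to 3625 were called lower (789 to 1300 beyond 2-fold) and 1527 to 3222 higher (196 to 431 beyond 2-fold). A line left with 1 library was assumed to vary like the other. The estimates that changed sign were those of genes not called: Fas without MK2 replicate 1 (range over the refits -1.42 to 0.014), and Rrm2b without MK1 replicate 2 or MK2 replicate 1 (range -0.16 to 0.024). With the replicate number as a block, 30 genes were called lower and 8 beyond 2-fold, and Phlda3 was the call lost. The labels do not say that numbers pair the cultures, and deviations of same-numbered cultures had a correlation of -0.15 across genes. With the numbers crossed, a setting chosen after seeing the data, 32 genes were called lower and 10 beyond 2-fold.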

Other observations

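Replicate cultures of MK2 differed more than those of MK1, both in the p53 target genes and over all genes tested. The median absolute log2 difference between replicates was 0.19 in MK2 and 0.09 in MK1 over the 36 genes, and 0.17 and 0.14 over all 12479 genes tested. Differences over 0.4 were found for 8 of the 36 genes in MK2 and for 0 in MK1. Among all 12479 genes tested they were found for 2470 in MK2, a share close to that of the 36, and for 1458 in MK1. In MK2, Cdkn1a, Mdm2, Trp53inp1, Tob1, Dcxr and Fas were higher in replicate 2 by 0.42, 0.46, 0.46, 0.53, 0.51 and 1.41 on the log2 scale, while Sesn1 and Cyfip2 differed by -0.84 and -0.65. Trp53 itself stood at 158 CPM in MK2 replicate 1 and 214 CPM in MK2 replicate 2. With 2 cultures per line this difference in spread was not tested.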
